A study of Mus musculus with 6 samples.

Results

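Transcripts of 34 genes of glycolysis, glycogen and lactate metabolism were followed in mouse gastrocnemius, the large calf muscle, in controls and after intermittent restraint. The genes were chosen by symbol, and all 34 were found, each as 1 row, among the 46504 features of the deposited table. The polyA RNA came from wild type mice, in 3 control libraries and 3 restraint libraries, and both groups carry the label day 4. Restrained mice were held in 50 mL tubes for 3 h, repeated every 4 days. Strain, sex, age, the handling of controls and the time from the last restraint to tissue collection are not given in the labels. Nor do the labels tie each library to its own mouse, and the spread behind the p-values may therefore be technical.

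Glycolysis converts glucose phosphate to pyruvate in the cytosol, and in fast muscle fibres lactate dehydrogenase turns much of that pyruvate into lactate, which leaves through monocarboxylate transporters. Muscle glycogen is built by glycogenin, glycogen synthase and branching enzyme from UDP-glucose, and is broken down by glycogen phosphorylase, which phosphorylase kinase switches on. Targeting subunits bring protein phosphatase 1 to the glycogen particle, where it favours synthesis. Gastrocnemius is mostly a fast, glycolytic muscle and holds both systems at high levels.

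Total counts ran from 44290720 to 51125779 per library, and all 34 genes passed the filter on low counts. The tissue label fitted the markers: 12 fast fibre genes summed to 177090 to 185030 TPM (transcripts scaled by length and by library, so that levels of different genes can be compared) in controls and 170320 to 175020 in restraint, so the restraint libraries were all lower. None of these 12 genes was called, and their median log2 fold change was -0.10. The 10 slow fibre genes summed to 2882 to 3655 TPM in controls and 2802 to 2987 in restraint, with overlap. Summed macrophage markers (9 genes, 1 of them, Cd68, called higher) reached 269.7 and 125 TPM in restraint 2 and restraint 3, against 61.9 to 80.0 in the other 4 libraries. The neutrophil list stayed between 0.0279 and 5.69 TPM, highest in restraint 2, with Ly6g at 0 in all 6 libraries. The 8 tendon genes, none called, had a median log2 fold change of -0.94 and summed to 102 to 162 TPM in controls and 50.8 to 135 in restraint, with overlap. Of the smooth muscle list 1 gene, Smtn, was called lower, at -0.57 on the log2 scale (edgeR adjusted p = 0.0249). The part of these lists in the results on the 34 genes was not tested. Mitochondrial transcripts took 13.2% to 19.3% of counts, most in control 2.

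The edgeR quasi-likelihood test called 5 of the 34 genes at an adjusted p under 0.05, which is 14.7%, against 1.83% of the 15448 features tested. The genes were chosen with earlier results of these data known, so shares of them, here and below, are descriptions and test no enrichment. Fbp2, Gbe1, Ppp1r3c and Phka1 were higher in restraint, where 1.26% of all features were called higher, and Ldhb was lower, where 0.563% of all features were called lower. They encode a fructose bisphosphatase, the glycogen branching enzyme, a glycogen targeting subunit, a subunit of phosphorylase kinase and the heart-type subunit of lactate dehydrogenase. None of the 11 enzymes of the core glycolytic chain passed, and 2 of them (18.2%) had an unadjusted p under 0.05, near the 15.6% of all features that did. Control and restraint libraries did not overlap for 14 of the 34 genes, 12 higher and 2 lower in restraint, against 21.8% of all features (10.6% higher and 11.1% lower). The log2 fold change was positive for 24 genes, or 70.6%, against 49.1% of all features, and its median was 0.12 against -0.01.

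On GRCm38 (RefSeq) the called genes lie at chr13:62836884-62858400 for Fbp2 (gene 14120), chr19:36731731-36736604 for Ppp1r3c (gene 53412), chrX:102513975-102644301 for Phka1 (gene 18679), chr16:70313949-70569720 for Gbe1 (gene 74185) and chr6:142490249-142507957 for Ldhb (gene 16832). The promoters of these 5 genes are shown since they are the members that passed the test, each from 250 bases before the transcript start to 50 after it, 5′ to 3′, from RefSeq on GRCm38.p6. For Phka1 the transcript start used lies inside the gene bounds given above, not at their edge. Capitals mark matches, on either strand, to ACGTG (the core of the hypoxia response element), CACGTG (an E-box bound by MLXIPL and clock factors, which contains ACGTG), TGACGTCA (the cyclic AMP response element), CAGCTG (an E-box of myogenic factors), TATAAA, or the palindromic glucocorticoid response element.
Fbp2 (chr13:62858351-62858650, minus strand): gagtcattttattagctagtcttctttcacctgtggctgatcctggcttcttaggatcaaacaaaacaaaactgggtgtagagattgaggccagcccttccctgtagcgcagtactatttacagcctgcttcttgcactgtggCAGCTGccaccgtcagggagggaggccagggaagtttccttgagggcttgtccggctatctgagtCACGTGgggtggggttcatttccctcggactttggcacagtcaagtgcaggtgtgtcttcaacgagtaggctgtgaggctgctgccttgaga
Ppp1r3c (chr19:36736555-36736854, minus strand): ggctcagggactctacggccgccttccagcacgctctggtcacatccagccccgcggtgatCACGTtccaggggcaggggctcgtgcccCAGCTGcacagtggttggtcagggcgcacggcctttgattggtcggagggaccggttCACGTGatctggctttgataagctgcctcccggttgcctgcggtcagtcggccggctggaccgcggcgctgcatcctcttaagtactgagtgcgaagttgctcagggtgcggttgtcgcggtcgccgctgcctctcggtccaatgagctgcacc
Phka1 (chrX:102644197-102644496, minus strand): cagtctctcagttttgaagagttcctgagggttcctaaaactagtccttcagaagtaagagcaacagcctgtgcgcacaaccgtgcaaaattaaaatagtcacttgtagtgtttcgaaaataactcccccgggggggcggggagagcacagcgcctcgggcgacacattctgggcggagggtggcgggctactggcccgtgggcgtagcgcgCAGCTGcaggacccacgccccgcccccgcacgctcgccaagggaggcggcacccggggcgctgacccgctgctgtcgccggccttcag
Gbe1 (chr16:70313699-70313998, plus strand): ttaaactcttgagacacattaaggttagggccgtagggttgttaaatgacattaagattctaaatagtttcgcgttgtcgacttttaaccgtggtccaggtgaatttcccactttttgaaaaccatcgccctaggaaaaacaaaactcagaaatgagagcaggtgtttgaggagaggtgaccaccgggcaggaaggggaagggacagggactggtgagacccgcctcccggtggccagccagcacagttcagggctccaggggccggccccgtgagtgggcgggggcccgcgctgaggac
Ldhb (chr6:142507908-142508207, minus strand): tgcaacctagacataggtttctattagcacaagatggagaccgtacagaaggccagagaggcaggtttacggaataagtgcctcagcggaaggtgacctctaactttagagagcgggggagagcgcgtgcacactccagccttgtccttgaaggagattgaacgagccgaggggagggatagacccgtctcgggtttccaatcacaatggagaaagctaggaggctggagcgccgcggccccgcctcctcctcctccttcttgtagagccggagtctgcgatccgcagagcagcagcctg

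CACGTG stood in the promoters of Fbp2, 42 bases before the start, and Ppp1r3c, 104 bases before it, and 7.15% of 32851 promoters of the same length hold it. CAGCTG stood in those of Fbp2, Phka1 and Ppp1r3c, against 16.3% of all promoters. Besides its E-box, the Ppp1r3c promoter held a further ACGTG core 189 bases before the start, and 19.6% of all promoters hold at least 1 such core. The windows of Gbe1 and Ldhb contained none of the 6 motifs as spelled. The promoter of Slc16a3, the uncalled gene with the smallest p, held ACGTG at 27 and 14 bases before the start. That start is of a transcript within the gene: the window, chr11:120948817-120949116, lies wholly inside the RefSeq gene bounds of chr11:120948484-120959000. These matches describe letters only, and binding was not measured.

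In levels per length the glycolytic chain spanned several orders of magnitude. Aldoa, the muscle aldolase, led all 34 genes with 15388 ± 883 TPM in controls (mean ± SD, n = 3 here and below) and 19248 ± 620.4 in restraint. The muscle enolase Eno3 (5589.5 ± 428) and Gapdh (5229 ± 887), which oxidises glyceraldehyde phosphate, came next in controls, and the TPM of both overlapped between groups. Below them came Pgam2, the muscle phosphoglycerate mutase, with 4121 ± 171 TPM, the glycogen phosphorylase Pygm with 3618 ± 550.5, and Ldha, the muscle-type lactate dehydrogenase subunit, with 2899 ± 299.7. The order of Pgam2 and Pygm was not the same in all controls, with 4019 and 4204 TPM in control 3. Pygm stood above Ldha in each control, at 3539, 3112 and 4204 against 2976, 2568 and 3152 TPM. Pgm1, Pfkfb2, Hk1 and Pgam1 were lowest, from 1.27 to 9.45 TPM. All members together took 4.47% to 5.14% of TPM in controls and 5.003% to 5.58% in restraint, with overlap, and 4.84% to 5.12% against 5.30% to 5.77% of read counts, without overlap. The share of counts uses plain library totals and weights genes by their reads, of which Aldoa had the most. Aldoa itself was not called and its scaled counts overlapped between groups.

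**Figure D1:**
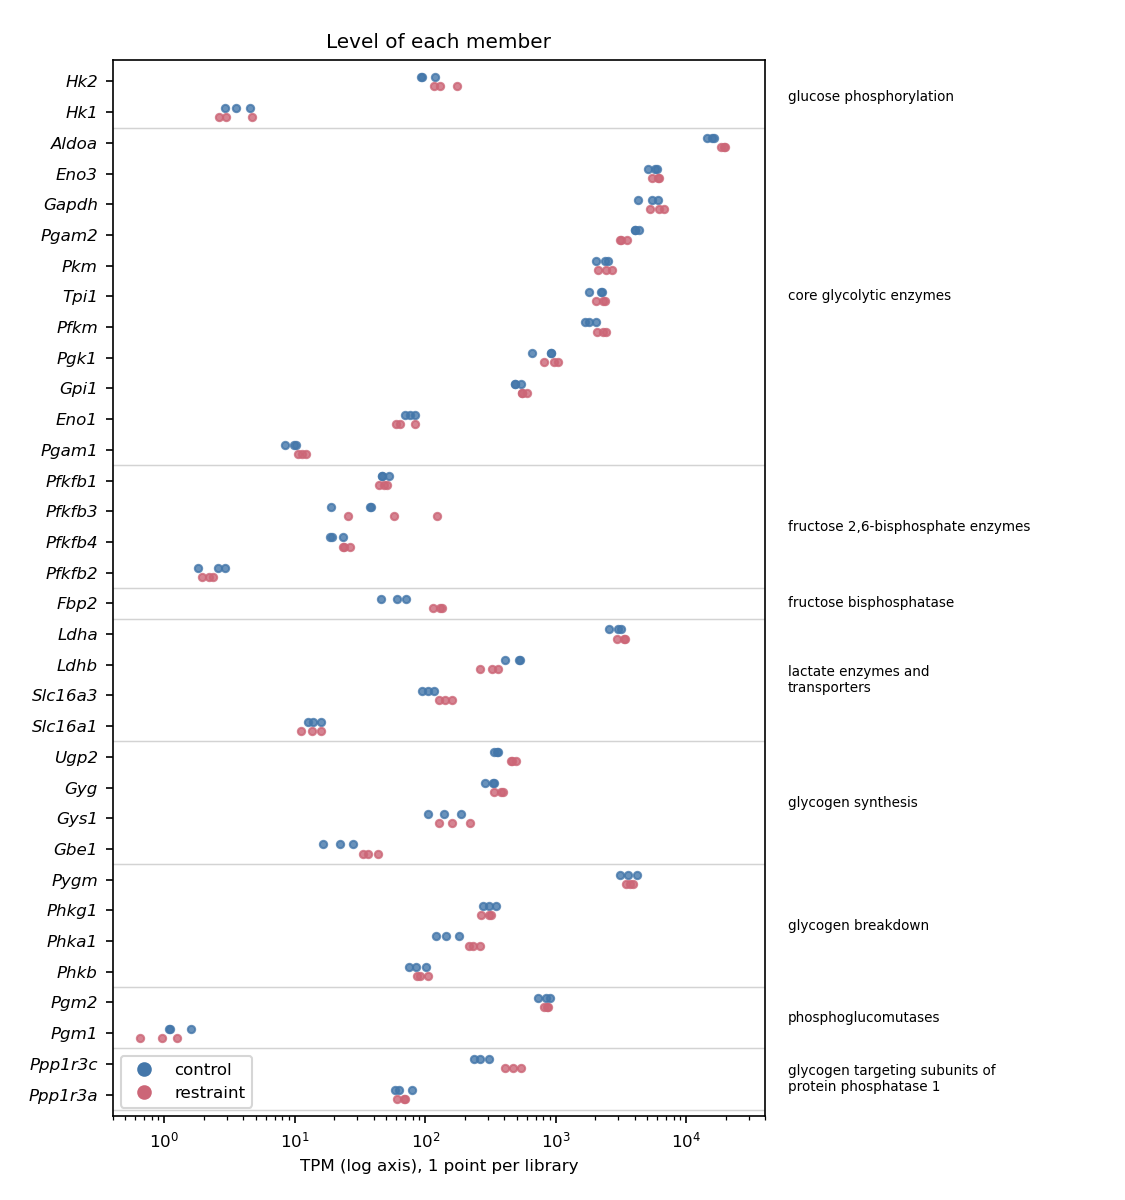
Level of each of the 34 genes in TPM on a log axis, grouped by role, with 1 point per library in 3 control and 3 restraint libraries. Aldoa is highest and Pgm1 lowest, and the restraint points of Fbp2, Gbe1, Phka1 and Ppp1r3c lie to the right of the control points while those of Ldhb lie to the left.

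Glucose enters the pathway through hexokinase. Hk2, the insulin-responsive hexokinase of muscle, stood at 292, 334 and 332 CPM (reads scaled by library size and TMM factors) in controls 1 to 3 and at 407, 502 and 380.1 in restraint 1 to 3. The groups did not overlap and restraint 2 was highest. Its log2 fold change of 0.43 ± 0.13 (SE) had an edgeR adjusted p of 0.159, so Hk2 was not called. Leaving out restraint 2 gave 0.30, and the macrophage marker sum of that library was also the highest; its part in the value was not tested. Hk1, the widely expressed hexokinase, was counted at 8.43, 7.97 and 9.62 CPM in controls and 7.17, 10.4 and 6.502 in restraint. Its groups overlapped, with -0.11 ± 0.19 on the log2 scale.

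No gene of the core chain from Gpi1 to Pkm passed the test. Values were above 0 for 9 of the 11, and the log2 fold change had its median at 0.13 between -0.38 and 0.28. Pfkm, the muscle phosphofructokinase that commits sugar to glycolysis, was counted at 2901, 3111 and 2934 CPM in the controls and 3790.0, 3629 and 3453 CPM after restraint. Every restraint library lay above every control. On the log2 scale the difference was 0.28 ± 0.11, and the edgeR adjusted p was 0.252. Aldoa had 13229, 16528 and 13145 CPM in controls and 18073, 16490.1 and 17576 in restraint. Control 2 lay inside the restraint range, and a log2 fold change of 0.28 ± 0.14 was not called (edgeR adjusted p = 0.382).

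Pgam2 was the largest negative value in the chain. It stood at 2095, 2592 and 1859.5 CPM in the 3 controls and 1845, 1492 and 1697 CPM in the 3 restraint libraries. Restraint libraries were all below the lowest control, but control 2 stood well above the rest. Pgam2 differed by -0.38 ± 0.15 on the log2 scale, with a 95% interval of -0.72 to -0.04 and an edgeR adjusted p of 0.27. Without control 2 the value was -0.23. Pgam1, the brain-type mutase, was counted at only 10.7, 10.2 and 9.20 CPM in controls and 12.1, 11.8 and 11.4 in restraint. The groups did not overlap, and the log2 fold change was 0.23 ± 0.11 with an edgeR adjusted p of 0.38. A pseudogene copy, Pgam1-ps2, drew 38.8% as many reads as Pgam1, so its value is uncertain.

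The other enzymes of the chain had intervals that included 0. On the log2 scale they were 0.18 ± 0.12 for Gapdh, 0.16 ± 0.12 for Pgk1, 0.13 ± 0.11 for Gpi1 (glucose phosphate isomerase) and 0.05 ± 0.11 for Tpi1 (triose phosphate isomerase). Gapdh had 4422, 4029.6 and 4377 CPM in controls and 5115, 4992 and 4443 in restraint, without overlap but not called (edgeR adjusted p = 0.512). Pgk1, phosphoglycerate kinase, has an expressed copy in the table, Pgk1-rs7, with 6.87% as many reads. For the enolases, Eno3 of muscle stood at 5248, 5222 and 4512 CPM in controls and 5456, 4921 and 4924 in restraint, and Eno1 of most other tissues at 85.5, 82.4 and 69.0 and 61.1, 78.7 and 67.4. Both had overlapping groups, and Eno1 had a log2 fold change of -0.19 ± 0.13. Eno3 had 0.03 ± 0.12 and the pyruvate kinase Pkm 0.03 ± 0.11, with 95% intervals of -0.24 to 0.30 and -0.22 to 0.27. Changes of the size called for Gbe1 or Phka1 lay outside both intervals.

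**Figure D2:**
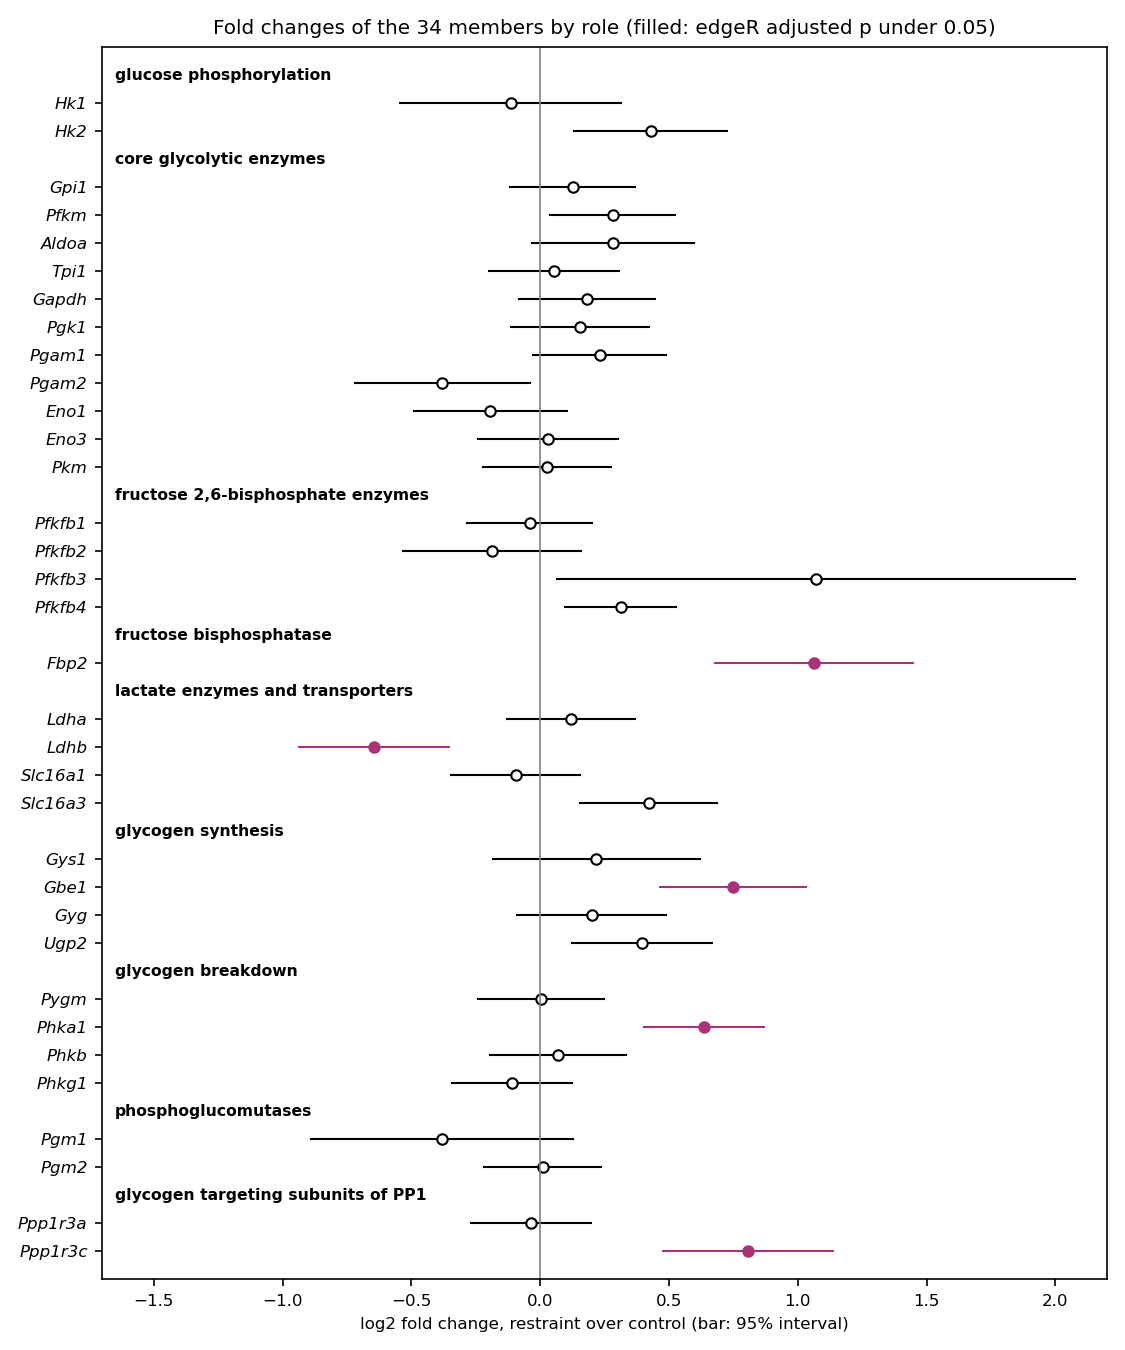
Log2 fold change of each gene, restraint over control, with its 95% interval (horizontal bar), ordered by role; filled points passed the edgeR test. Core glycolytic enzymes sit between -0.38 and 0.28 with no call, and the 5 filled points are Fbp2 (1.06), Ldhb (-0.64), Gbe1 (0.75), Phka1 (0.64) and Ppp1r3c (0.81).

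Fbp2 carries out the step opposite to Pfkm, removing a phosphate from fructose bisphosphate, and in muscle it is known for turning lactate back toward glycogen. It was counted at 34.9, 53.2 and 48.1 CPM in controls, against 102, 80.4 and 102 CPM in restraint. All 3 restraint libraries stood above all controls, with restraint 2 nearest to them. Fbp2 rose 2.09-fold, a log2 fold change of 1.06 ± 0.17 (95% interval 0.68 to 1.45) with an edgeR adjusted p of 0.0236. It was also called with restraint 1 or restraint 2 left out. It missed the threshold when control 1 (adjusted p = 0.0999), control 2 (0.0512), control 3 (0.0547) or restraint 3 (0.0971) was left out of the edgeR fit, with log2 fold changes from 0.90 to 1.195.

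The 4 Pfkfb genes encode enzymes that make and remove fructose 2,6-bisphosphate, the strongest activator of phosphofructokinase. Pfkfb3, the isoform with the highest kinase activity, stood at 147, 83.9 and 127 CPM in controls and 220.4, 429 and 101 in restraint. Restraint 3 was inside the control range and restraint 2 was far above all others. Its log2 fold change of 1.07 ± 0.44 was not called (edgeR adjusted p = 0.292) and was 0.43 without restraint 2. Macrophage and neutrophil marker sums were also highest in restraint 2, at 269.7 and 5.69 TPM; their part in this value was not tested. Pfkfb4 showed the opposite spread, with 36.9, 37.8 and 41.8 CPM in controls and a narrow 47.7, 48.9 and 48.1 in restraint. Its groups did not overlap, and the log2 fold change was 0.31 ± 0.09 with an edgeR adjusted p of 0.156. Pfkfb1, which includes the muscle form and was the most abundant of the family in controls at 48.6 ± 3.34 TPM, was counted at 52.2, 58.8 and 62.8 CPM in controls and 56.1, 59.7 and 53.1 in restraint. Its groups overlapped at -0.04 ± 0.11 on the log2 scale, and Pfkfb2, the heart form, had -0.19 ± 0.15.

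On the lactate side the heart-type subunit fell while the muscle-type subunit did not pass the test. Ldhb, whose tetramers are typical of oxidative fibres and heart, was counted at 386, 351 and 349 CPM in controls and 270.2, 223 and 201 in restraint. Each restraint library lay below each control. Ldhb fell to 0.64 of the control level, a log2 fold change of -0.64 ± 0.13 (95% interval -0.93 to -0.35) with an edgeR adjusted p of 0.0458. Of the fits with 1 library left out, Ldhb was called only in that without restraint 1 (-0.77). The edgeR adjusted p was 0.223, 0.103 and 0.0753 with control 1, control 2 or control 3 removed and 0.14 and 0.179 with restraint 2 or restraint 3 removed. The slow fibre marker sum overlapped between groups, and none of its 10 genes was called. Log2 fold changes in that list ran from -0.50 for Myh7b to 0.28 for Tnni1, with a median of -0.18. Only Myl3 had groups that did not overlap, lower in restraint at -0.44 (edgeR adjusted p = 0.128). In whole muscle, fewer cells of a type and less RNA per cell cannot be told apart.

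Ldha stood at 2774, 2759.6 and 2613 CPM in controls and 3187, 2851 and 2822 in restraint. The groups did not overlap but lay close together, and the log2 fold change of 0.12 ± 0.11 gave an edgeR adjusted p of 0.664. Slc16a3, the lactate exporter MCT4 of glycolytic fibres, was the uncalled gene with the smallest p. It was counted at 246, 312 and 269.7 CPM in the control libraries and 372, 387 and 349 CPM in the restraint libraries. Restraint was higher throughout. Slc16a3 differed by 0.42 ± 0.12 in log2 terms (edgeR adjusted p = 0.125). Csnk1d overlaps it in the genome with 15.5% as many reads, and no source here says whether counting used strand. Slc16a1, the transporter MCT1 of oxidative fibres, had 35.1, 37.2 and 36.1 CPM in controls and 34.9, 37.1 and 29.5 in restraint, a log2 fold change of -0.09 ± 0.11.

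**Figure D3:**
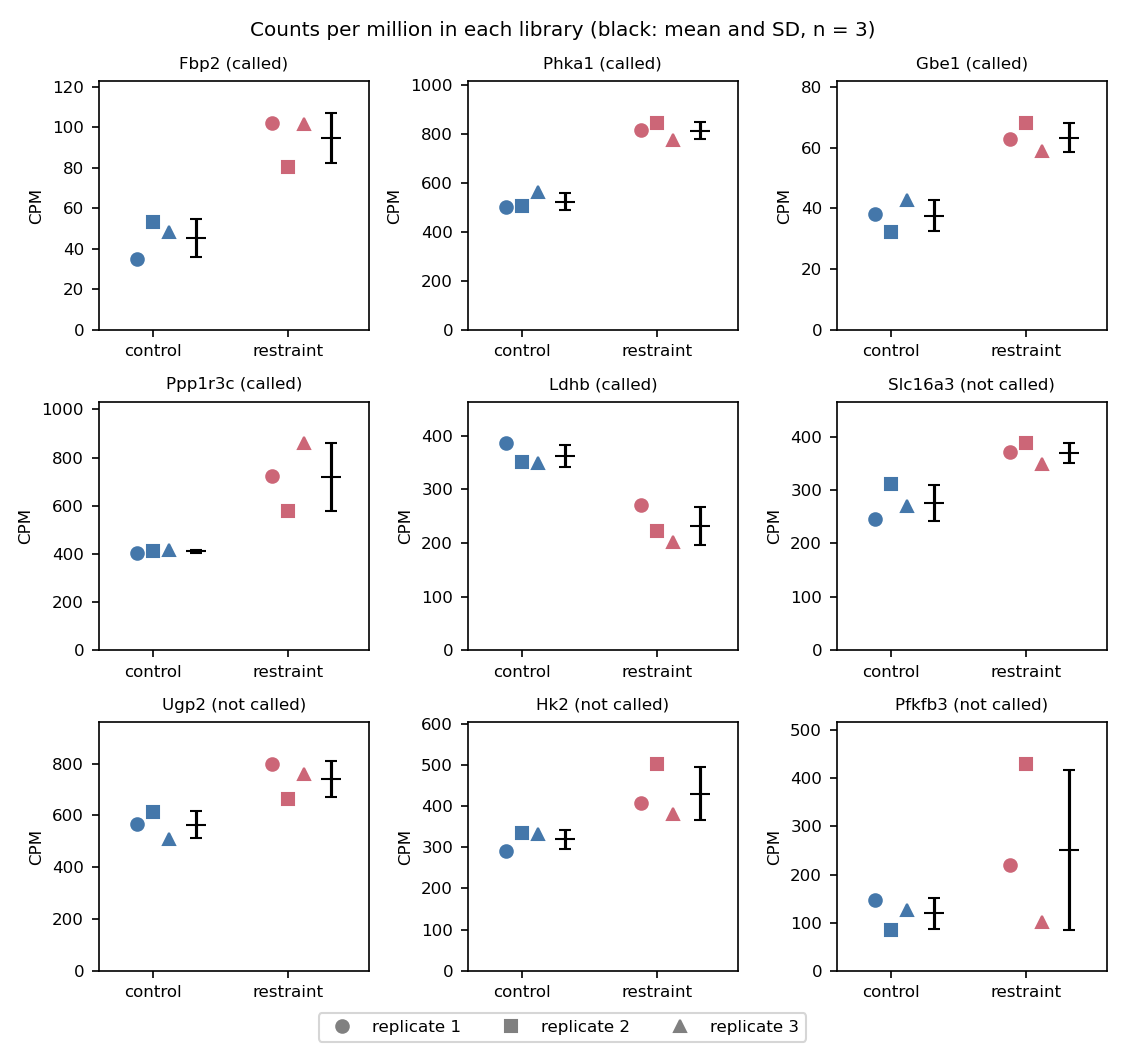
CPM of 9 genes in each library (points, by replicate number) with the mean and SD of each group (black, n = 3). The 5 called genes and Slc16a3, Ugp2 and Hk2 have groups that do not overlap, whereas Pfkfb3 overlaps and its restraint 2 value of 429 stands apart.

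Among genes of glycogen synthesis the branching enzyme rose and all 4 had positive values. Gbe1, which adds the branches that make glycogen compact and soluble, stood at 38.2, 32.2 and 42.6 CPM in controls, against 62.9, 68.2 and 58.8 CPM in restraint. The lowest restraint library was above the highest control. Gbe1 rose 1.68-fold (log2 fold change 0.75 ± 0.12, 95% interval 0.46 to 1.03), and edgeR gave an adjusted p of 0.0251. The call held with control 3 or restraint 1 left out and was lost in edgeR fits lacking control 1 (adjusted p = 0.149), control 2 (0.068), restraint 2 (0.0787) or restraint 3 (0.0782), where the log2 fold change was 0.65 to 0.80.

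Ugp2, which makes UDP-glucose, was the most abundant of the 4. It had 565, 614 and 511 CPM in controls and 799, 664 and 759.6 in restraint. The groups did not overlap, and 0.40 ± 0.12 on the log2 scale missed the threshold (edgeR adjusted p = 0.157). Gyg, the glycogenin that primes each particle, had 0.20 ± 0.13 with overlapping groups. Gys1, the muscle glycogen synthase, varied most within groups, at 315, 276 and 380.2 CPM in controls and 367, 461 and 301 in restraint. Its log2 fold change was 0.22 ± 0.18 (edgeR adjusted p = 0.623), and 0.05 without restraint 2. Summed over the 4 genes, TPM was 737.8 to 900.8 in controls and 1000.2 to 1083 in restraint, without overlap. Such sums weight genes by level: mean restraint TPM was 468 for Ugp2 and 370 for Gyg, both uncalled, and 37.6 for Gbe1. The sum of the targeting subunits also separated (292 to 384 against 479 to 599). Sums overlapped for the core chain (36003 to 40247 against 39936 to 44513), the lactate genes (3092.5 to 3810 against 3324 to 3913) and glycogen breakdown (3583 to 4833 against 4019 to 4577).

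On the breakdown side a regulatory subunit rose while the phosphorylase had a log2 fold change near 0. Phka1, the muscle alpha subunit that restrains phosphorylase kinase until it is phosphorylated, was counted at 501, 508 and 564 CPM in controls and 819, 847 and 778 CPM after restraint. Both groups were tight and lay far apart. Phka1 rose 1.55-fold (log2 fold change 0.64 ± 0.10, 95% interval 0.40 to 0.87), and edgeR gave an adjusted p of 0.0249. With a library left out edgeR called it only without control 3, and the adjusted p was 0.154 and 0.068 without control 1 and control 2, and 0.0512, 0.0803 and 0.0882 in the fits that lacked restraint 1, restraint 2 and restraint 3. The log2 fold change was 0.60 to 0.69 over these fits.

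Its partners in the kinase did not pass. Phkb, the beta subunit, stood at 379, 379 and 407 CPM in controls and 454, 357 and 411 in restraint, a log2 fold change of 0.07 ± 0.12; the overlapping gene Itfg1 drew 12.0% as many reads. Phkg1, the catalytic gamma subunit of muscle, had 444, 451 and 428 CPM in controls and 447, 392 and 388 in restraint, a log2 fold change of -0.11 ± 0.10. Pygm itself was counted at 5834, 5918 and 6156 CPM in controls and 6113, 5944 and 5883 in restraint. Its groups overlapped, and the log2 fold change of 0.00 ± 0.11 had a 95% interval of -0.24 to 0.25. The interval of Phka1 starts above those of Pygm, Phkb and Phkg1 end, though the difference between these genes was not tested in the fit.

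Phosphoglucomutase links both systems by moving phosphate on glucose. The table names gene 72157 Pgm2 and gene 66681 Pgm1, while RefSeq on GRCm38.p6 uses these names the other way round. Gene 72157, the main phosphoglucomutase of this muscle, had 1154, 1152 and 1113 CPM in controls and 1207, 1088 and 1146 in restraint. The groups overlapped, with a log2 fold change of 0.01 ± 0.10 (95% interval -0.22 to 0.24). Gene 66681 was the least abundant member, with 56 to 117 reads per library and a log2 fold change of -0.38 ± 0.22.

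The glycogen targeting subunits of protein phosphatase 1 parted. Ppp1r3c, also known as PTG, stood at 405, 414 and 416 CPM in controls, against 722, 579 and 859 CPM in restraint. Controls were almost identical, and the restraint libraries were all higher but spread widely, with restraint 3 at the top. Ppp1r3c rose 1.75-fold (log2 fold change 0.81 ± 0.15, 95% interval 0.48 to 1.14), and edgeR gave an adjusted p of 0.0319. The call held without restraint 2. It was lost on removal of control 1, control 2 or control 3 (edgeR adjusted p = 0.183, 0.0917 and 0.0746) and of restraint 1 or restraint 3 (0.0647 and 0.109), with log2 fold changes of 0.66 to 0.81. Ppp1r3a, the main targeting subunit of striated muscle, had 257, 279 and 290.1 CPM in controls and 289.6, 260.1 and 256 in restraint, a log2 fold change of -0.04 ± 0.10. Per length Ppp1r3c was the more abundant, at 267 ± 35.6 TPM in controls against 66.9 ± 10.8 for Ppp1r3a.

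Set side by side, the 17 genes of glucose phosphorylation, the core chain and lactate gave 1 call, lower (5.88%), and the 12 glycogen genes gave 3 calls, all higher (25.0%), where 1.83% of all features were called. Their medians were alike, with log2 fold changes of 0.12 and 0.13 against -0.01 over all features. Fbp2, which was called higher, and the 4 Pfkfb genes, none of them called, belong to neither set. Groups did not overlap for 8 of the 17 (47.1%, 6 of them higher) and 4 of the 12 (33.3%, all higher), against 21.8% of all features in either direction and 10.6% higher. Of the 12 glycogen genes 9 did not pass, Gys1, Ugp2 and Pygm among them, which does not show that they were unchanged. The interval was -0.18 to 0.62 for Gys1, 0.12 to 0.67 for Ugp2 and -0.24 to 0.25 for Pygm. Whether the change was confined to the called steps or shared by more of the list was not tested. The median of the glycogen genes was 0.06 without restraint 1.

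Ratios of genes with paired roles were taken from TPM within each library, which removes differences in scaling between libraries. Hk2 exceeded Hk1 by 26.4 to 31.8 times in controls and 37.0 to 44.2 times in restraint. Ldha exceeded Ldhb by 5.76 to 6.30 times in controls and 9.45 to 11.2 times in restraint. In both pairs the groups did not overlap.

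The transporter Slc16a3 exceeded Slc16a1 by 6.81 to 8.19 times in controls and 10.2 to 11.4 times in restraint. Phka1 exceeded Phkb by 1.601 to 1.80 times in controls and 2.22 to 3.08 times in restraint. Pfkm exceeded Fbp2 by 27.4 to 38.9 times in controls and by 15.9 to 21.1 times in restraint. All 3 pairs again had groups that did not overlap. Pgam2 exceeded Pgam1 by 396 to 516 times in controls and 256 to 309 times in restraint, with the uncertainty of Pgam1 given above. Eno3 exceeded Eno1 by 71.0 to 75.6 times in controls and 72.4 to 103 times in restraint, with overlap.

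The mean log2 ratio changed by 0.55 for Hk2/Hk1, -0.77 for Ldhb/Ldha, -0.52 for Slc16a1/Slc16a3, -0.57 for Phkb/Phka1, 0.80 for Fbp2/Pfkm, -0.60 for Pgam2/Pgam1 and 0.23 for Eno3/Eno1. The exact two-sided permutation test gave p = 0.1 for the first 6, the smallest p that 3 against 3 libraries can give, and p = 0.3 for Eno3/Eno1 (0.117 and 0.3 after Benjamini-Hochberg adjustment over the 7 pairs), so none could pass 0.05. The ratios come from the same libraries as the tests above and restate those values on a per-length scale.

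**Figure D4:**
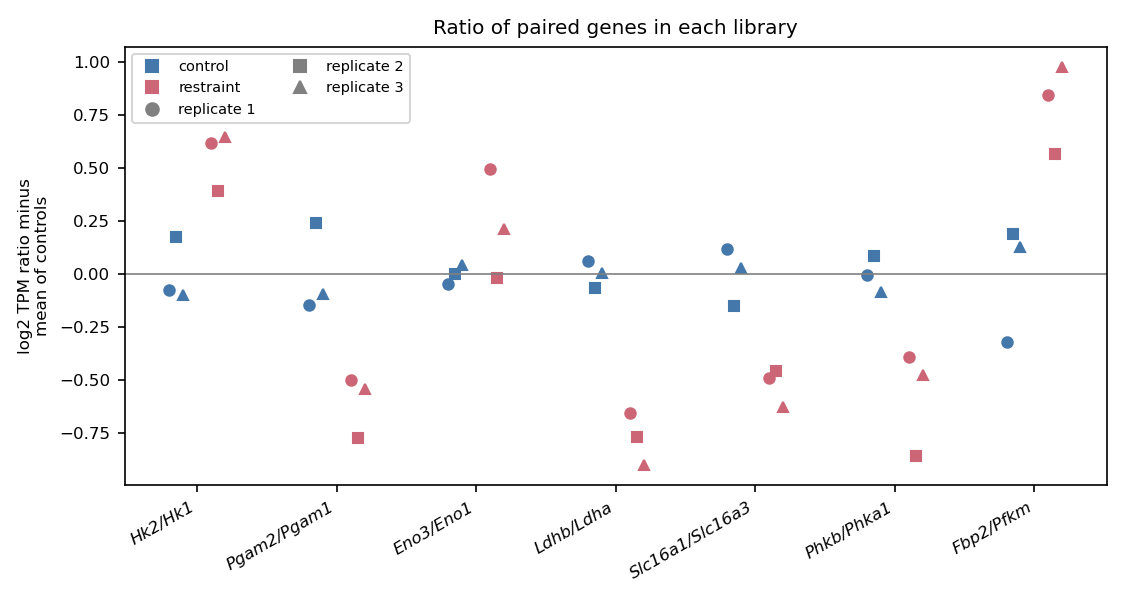
Log2 ratio of TPM for 7 pairs of genes in each library, with the mean of the 3 controls subtracted, so that 0 is the control mean. Control and restraint libraries are separate for 6 pairs, with Ldhb/Ldha and Pgam2/Pgam1 lower and Fbp2/Pfkm and Hk2/Hk1 higher in restraint, and mix for Eno3/Eno1.

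Beyond the 34, 83 further genes of the pathway were listed by role, and 73 had enough counts to be tested. One was called, or 1.37%, close to the 1.83% of all features. It was Stbd1, a glycogen-binding protein linked to the delivery of glycogen to lysosomes, at 33.9, 30.5 and 29.0 CPM in controls and 58.1, 46.9 and 49.9 in restraint. Restraint libraries were all above the controls. Stbd1 rose 1.66-fold (log2 fold change 0.73 ± 0.12, 95% interval 0.46 to 0.99), and edgeR gave it an adjusted p of 0.0236. Leaving out restraint 1 or restraint 2 kept the call, and edgeR fits without control 1, control 2, control 3 or restraint 3 gave adjusted p of 0.106, 0.0775, 0.0602 and 0.0846.

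No other list gave a call. Among 21 tested other glycogen genes, Stbd1 was the single one. None of 12 tested other isozymes, 9 glucose and monocarboxylate transporters, 14 genes of side branches and gluconeogenesis or 17 regulators passed edgeR, with 3, 2, 2 and 3 at an unadjusted p under 0.05, or 25.0%, 22.2%, 14.3% and 17.6% of them, where 15.6% of all features had one. Slc37a4, the glucose 6-phosphate transporter of the endoplasmic reticulum, came nearest, with 97.3, 86.5 and 75.9 CPM in controls and 55.2, 63.0 and 55.2 in restraint. It was lower in every restraint library, at -0.58 ± 0.12 on the log2 scale, and missed the threshold with an edgeR adjusted p of 0.0525. Adpgk, a glucose kinase that uses ADP, had a log2 fold change of 0.56 ± 0.16, and the transcription factors Myc and Arnt, the partner of the hypoxia-inducible factors, 0.70 ± 0.20 and 0.48 ± 0.14, all with groups that did not overlap and none called (edgeR adjusted p from 0.124 to 0.145). Slc2a4, the insulin-regulated glucose transporter, had 0.20 ± 0.10 (edgeR adjusted p = 0.402).

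Whether the 5 called genes passed changed when a library was left out. Such a fit also has a smaller group, so the part of the library removed and that of fewer libraries cannot be told apart. Over the 11 other processing settings and the 6 fits with a library left out, the log2 fold changes of the 5 called genes kept their sign and ranged from 0.90 to 1.195 for Fbp2, 0.60 to 0.69 for Phka1, 0.65 to 0.85 for Gbe1, 0.66 to 0.94 for Ppp1r3c and -0.77 to -0.55 for Ldhb. The number of members called by edgeR was 0 without control 1, control 2 or restraint 3, 2 without control 3 or restraint 2, and 3 without restraint 1. The same fits called 16, 51, 55, 174, 98 and 350 features in all.

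**Figure D5:**
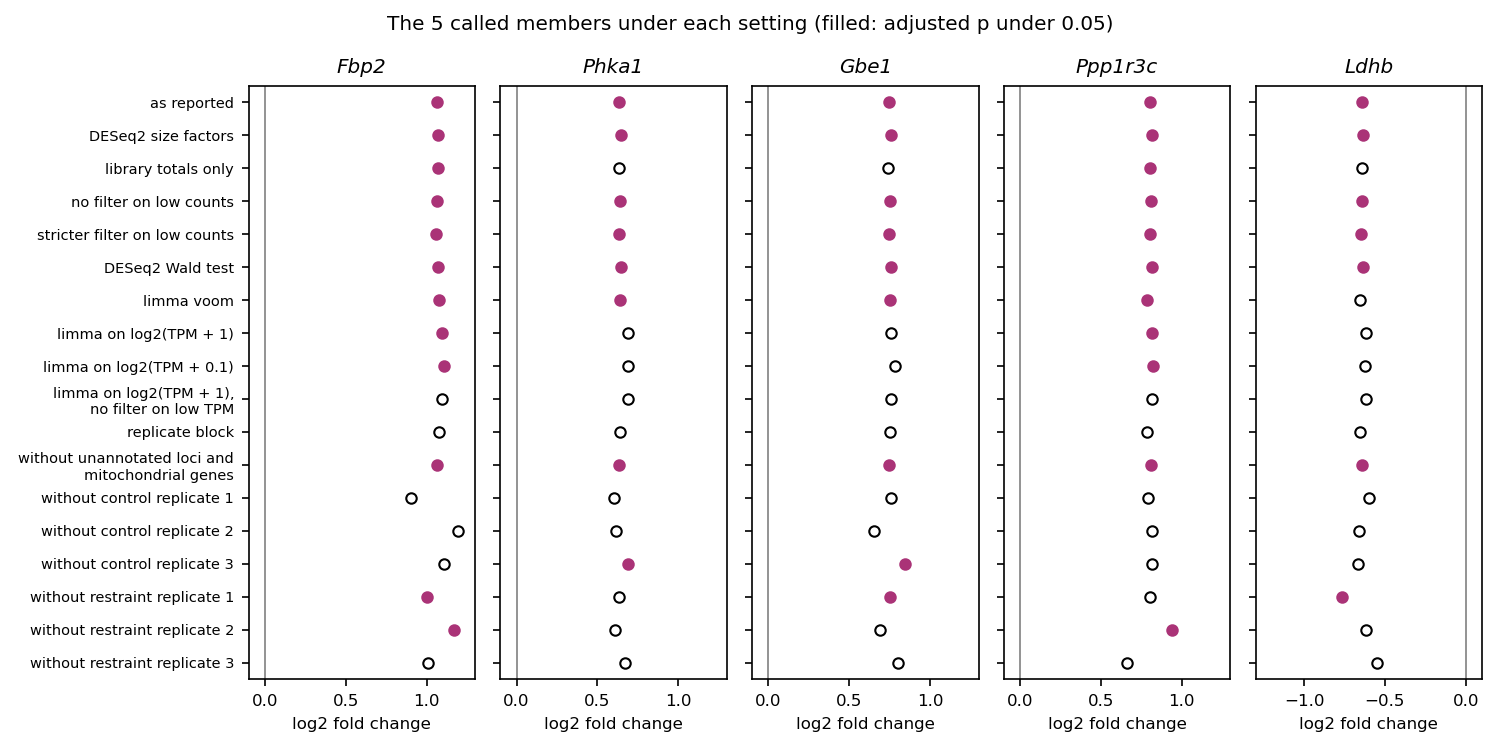
Log2 fold change (horizontal axis) of the 5 called genes under each setting (vertical axis), filled where the adjusted p was under 0.05. Values vary little within a gene while filled points come and go, and Fbp2 and Ppp1r3c are filled in 9 of the 11 other processing settings.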

How the data were processed

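PolyA RNA of gastrocnemius was measured in 3 control and 3 restraint libraries, grouped by the labels. The submitters' processing notes name the build GRCm38 and the tools StringTie 2.1.3b, HISAT2 2.1.0, Trimmomatic and bcl2fastq 2.20.0, without their roles. The deposited values are whole read counts, TPM and FPKM per feature, per the file headers, and FPKM were left aside. The 825 unannotated loci kept their own identifiers and stayed in the fit.

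The test on read counts was that of edgeR 4.0.16 under R 4.3.3 (filterByExpr with minimum count 10 and minimum total 15, TMM, glmQLFit, glmQLFTest, two-sided, no fold limit), with Benjamini-Hochberg adjustment over all 15448 features tested. SE is the log2 fold change over the square root of F. Depth was 44290720 to 51125779 counts, so that 3 counts equal 0.0587 to 0.0677 CPM, which covers counting error only. Libraries of a group all differed by more than counting noise: their chi-square was at least 27.2 times its degrees of freedom.

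The members and gene lists were chosen with earlier results of these data known. Full values were given for called members, the 8 uncalled with the smallest p, the most abundant of each role and the 7 pairs; other values were named after being seen. Some genes of the wider lists are not reported here. Alternatives were DESeq2 1.42.0, limma 3.58.1 (voom, and on log2 TPM with a pseudocount of 1 or 0.1), other scaling, filters, a replicate block and each library left out. Simulated counts with known changes were used to test the edgeR script. Gene coordinates and names were matched by gene identifier to RefSeq for all 34 members.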

Additional observations from a re-analysis of the deposited data

How the results depend on the processing

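Against 282 features and 5 members called by edgeR, the DESeq2 Wald test called 809 and 8 (Hk2, Slc16a3 and Ugp2 besides the 5). Limma on log2(TPM + 1) called 122 and 2, on log2(TPM + 0.1) 112 and 2, and without a filter on low TPM 14 and 0. Library totals in place of TMM left 2 members (Fbp2 and Ppp1r3c). With the replicate number as a block 60 features and 0 members were called, with all 5 values of the same sign; same-numbered libraries did not deviate together (correlations of 0.01, -0.20 and -0.21), so the numbers were not taken to pair them. The remaining settings (DESeq2 size factors, no filter or a stricter filter on low counts, voom, and leaving out unannotated loci and mitochondrial genes) called 4 or 5 members.

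With 1 library left out, 16 to 350 features and 0 to 3 members were called, and the median log2 fold change of glycogen genes was 0.065 to 0.124. Signs turned in 15 of 204 such values, all of uncalled genes near 0, whose log2 fold changes ran from -0.34 to 0.020 for Hk1, -0.011 to 0.096 for Tpi1, -0.038 to 0.067 for Eno3, -0.0040 to 0.080 for Pkm, -0.11 to 0.021 for Pfkfb1, -0.014 to 0.025 for Pygm, -0.017 to 0.16 for Phkb, -0.028 to 0.047 for Pgm2 and -0.092 to 0.0038 for Ppp1r3a. Pygm was also -0.0016 under the stricter filter. The cause was not tested. The 7 pair ratios kept their sign with read counts or with a library left out.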
